A study of Mus musculus with 24 samples.

Results

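Of the 22943 genes in the table, 40 were examined, chosen by symbol as a cell cycle and DNA replication module: 20 genes of the G1 phase, of the G1/S transition and of DNA replication (here G1/S) and 20 genes of G2 and mitosis (here G2/M). All 40 were found, and all 40 passed the filter on low values. The samples were 24 whole-uterus RNA-seq libraries from 21-day-old female C57bl/6 mice in 4 groups. Every mouse carried the floxed Ctcf allele on both chromosomes. The knockout mice (cKO, PgrCre+;Ctcf-f/f) also carried Cre, expressed from the progesterone receptor gene, and the controls were littermates without Cre (here floxed). Mice received 0.5 mg of progesterone (P4) in 0.05 ml of sesame oil under the skin, or 0.05 ml of oil alone (vehicle), and uteri were taken 6 h later. There were 8 floxed vehicle, 8 knockout vehicle, 4 floxed progesterone and 4 knockout progesterone libraries. Because all knockout mice and no control carried Cre, an effect of losing Ctcf and one of carrying Cre cannot be told apart. Recombination is limited to cells that have expressed the progesterone receptor gene, so the other cells of the uterus kept intact Ctcf.

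A cell enters the cycle when D-type cyclins with Cdk4 and E-type cyclins with Cdk2 inactivate the retinoblastoma family and free E2F factors, which switch on replication genes. In G1, Cdc6 and Cdt1 load the Mcm2 to Mcm7 helicase onto origins (licensing), and Cdk inhibitors such as Cdkn1b (p27) and Cdkn1a (p21) hold the kinases back. Later, cyclins A and B with Cdk1, the factor Foxm1, and kinases such as Aurka and Plk1 carry the cell through mitosis, and the anaphase-promoting complex with Cdc20 and Ube2c ends it. In the uterus, proliferation of epithelium and stroma follows the ovarian steroids. These libraries are of bulk tissue, in which fewer cells in a phase and less RNA per cell cannot be told apart.

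Promoters are shown for called members of both phases because the textbook regulators of G1/S genes (E2F) and G2/M genes (a complex bound at CHR elements, with NF-Y at CCAAT boxes) read different motifs. The sequences are the 250 bases before the first listed RefSeq start (GRCm38.p6), 5′ to 3′ on the gene's strand, with motif letters in capitals. The longest GENCODE gene models of the same build reach further upstream for 3 of them, so that the Mcm7 window lies inside the gene model and those of Ube2c and Cdc20 overlap its edge. They are Mcm6 (chr1:128359706-128359955, minus strand), Mcm7 (chr5:138171884-138172133, minus strand), Ube2c (chr2:164769679-164769928, plus strand), Cdc20 (chr4:118437344-118437593, minus strand) and Aurka (chr2:172370571-172370820, minus strand).
Mcm6: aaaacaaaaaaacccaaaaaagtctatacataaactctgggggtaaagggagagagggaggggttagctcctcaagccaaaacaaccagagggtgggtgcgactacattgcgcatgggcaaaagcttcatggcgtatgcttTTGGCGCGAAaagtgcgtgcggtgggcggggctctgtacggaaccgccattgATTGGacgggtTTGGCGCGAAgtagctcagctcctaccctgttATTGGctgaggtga
Mcm7: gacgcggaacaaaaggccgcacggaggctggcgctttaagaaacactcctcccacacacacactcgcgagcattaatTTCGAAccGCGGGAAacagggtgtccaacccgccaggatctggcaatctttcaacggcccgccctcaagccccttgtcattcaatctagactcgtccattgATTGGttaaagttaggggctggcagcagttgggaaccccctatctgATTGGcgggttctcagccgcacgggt
Ube2c: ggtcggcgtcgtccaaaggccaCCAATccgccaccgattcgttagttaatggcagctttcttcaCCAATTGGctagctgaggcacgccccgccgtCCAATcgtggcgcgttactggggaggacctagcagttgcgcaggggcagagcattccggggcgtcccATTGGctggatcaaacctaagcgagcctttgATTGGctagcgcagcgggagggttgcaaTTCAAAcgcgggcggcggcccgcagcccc
Cdc20: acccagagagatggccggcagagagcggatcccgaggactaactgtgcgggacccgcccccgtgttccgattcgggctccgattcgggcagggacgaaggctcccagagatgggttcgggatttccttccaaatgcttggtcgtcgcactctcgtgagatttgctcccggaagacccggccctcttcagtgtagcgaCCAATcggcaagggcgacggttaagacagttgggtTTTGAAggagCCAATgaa
Aurka: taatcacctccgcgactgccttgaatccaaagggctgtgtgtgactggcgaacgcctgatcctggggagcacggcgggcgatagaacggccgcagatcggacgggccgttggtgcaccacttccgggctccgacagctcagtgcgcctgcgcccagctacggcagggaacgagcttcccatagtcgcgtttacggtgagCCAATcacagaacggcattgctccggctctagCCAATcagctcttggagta
The motifs searched on both strands were the E2F core (the letters TTGGCGC or, in other forms, TTCCCGC and also TTCGCGC and also TTGCCGC), the CHR element (TTTGAA or TTCGAA) and the CCAAT box (CCAAT). E2F core matches on opposite strands can overlap each other and a CCAAT match. A promoter window was found for 32 of the 40 members, 16 in each phase. Of the G1/S members 6 (37.5%) held an E2F core, against 3 of the G2/M members (18.75%), 7.97% of 27025 promoters of the same length and 13.9% of the 11225 that belong to genes tested here. A CHR element was in 2 G1/S members (12.5%) and 8 G2/M members (50%), against 17.4% of all promoters and 12.1% of those of tested genes. A CCAAT box was in 9 G1/S members (56.25%) and 15 G2/M members (93.75%), against 34.5% and 36.3%. A CHR element together with a CCAAT box was in 2 G1/S and 8 G2/M members, against 6.21% and 4.76%. Among the 5 sequences shown, Mcm6 held E2F cores and CCAAT boxes without a CHR element. Mcm7 held all 3 kinds, Ube2c and Cdc20 held a CHR element with CCAAT boxes, and Aurka held CCAAT boxes alone. These are letter matches, not measured binding.

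Values are the authors' batch-corrected RPKM (reads scaled by gene length and library depth), called RPKM below. They can fall below 0 after the correction, whose form is not described in the sources used here. A set of 8 libraries, 4 of each genotype, formed a batch of vehicle samples alone, and the other 16, 4 per group, formed a mixed batch. The depth implied by the value of 1 read was 29.9 to 100.6 M reads per library. Ctcf, the targeted gene, checked the labels: it was 25.9 ± 2.36 RPKM (SD, n = 8) in floxed and 11.5 ± 1.11 (SD, n = 8) in knockout vehicle libraries, which did not overlap (exact two-sided permutation p = 0.0001554, the smallest that 8 against 8 allow). After progesterone it was 26 ± 1.05 (SD, n = 4) and 9.95 ± 0.982 (SD, n = 4), again without overlap (exact two-sided permutation p = 0.0286, the smallest that 4 against 4 allow). Floxed progesterone library 1 stood apart: it was the lowest of its group for 20 of 20 G2/M members, 7 of them below 0, and for 16 of 20 G1/S members. Knockout vehicle library 10 was the lowest of its group for 20 of 20 G2/M and 17 of 20 G1/S members. Phase medians and counts are given without these libraries where they changed a call, a direction or a value by over 1.5 times. The labels do not say that each library is a separate animal, and the numbers 1a and 1b, and 11a and 11b, recur across the batches, so p-values measure the spread between these libraries.

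**Figure D1:**
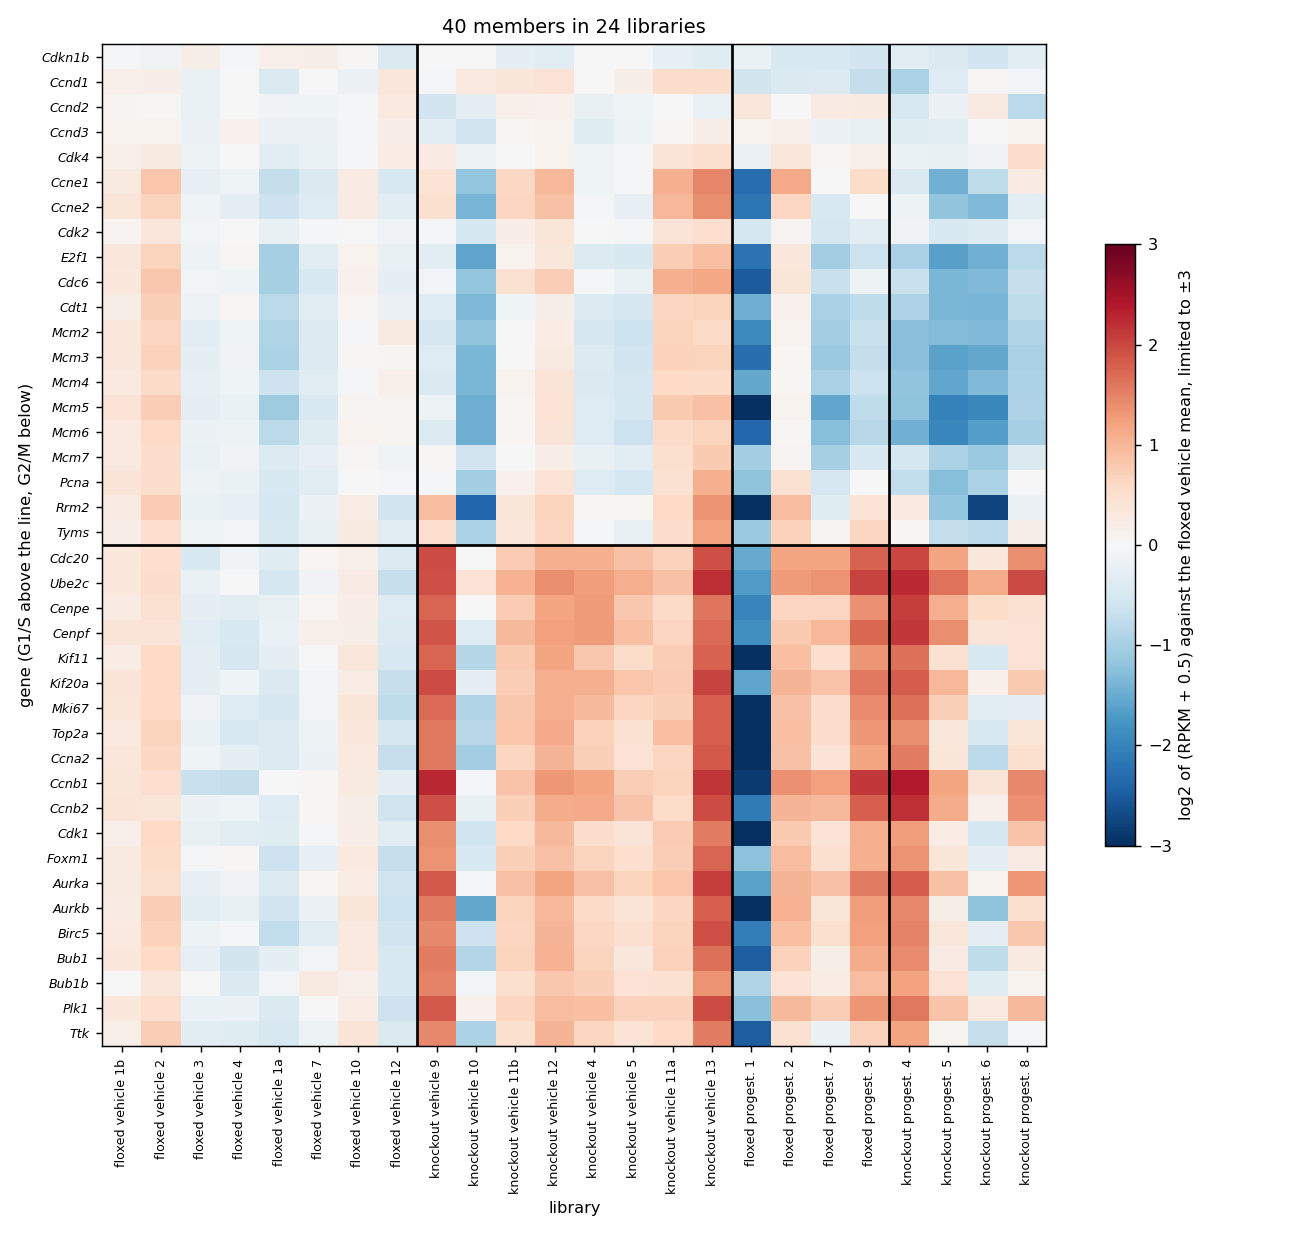
Each cell is the log2 of RPKM plus 0.5 of 1 gene (rows, G1/S above the line) in 1 library (columns, by group), relative to the floxed vehicle mean and limited to ±3. Floxed progesterone library 1 is the darkest blue column, and most knockout vehicle columns are red in the G2/M rows and mixed in the G1/S rows.

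In vehicle-treated uteri 7 of the 20 G2/M genes rose in the knockout, 13 were not called, and no G1/S gene was called. The 7 rose and 0 fell at an adjusted p of 0.05 (limma, Benjamini-Hochberg over 14284 genes), where 13.1% of all genes rose and 11.5% fell. All 20 fitted log2 fold changes were above 0, with a median of 0.91 against a median of -0.01 over all genes. The ubiquitin-conjugating enzyme Ube2c, which works with the anaphase-promoting complex, ran from 6.81 through a median of 10.9 to 16.3 RPKM in floxed libraries and from 15.2 through 25.9 to 54.1 in knockout libraries. Of the 8 knockout libraries, 7 lay above the highest floxed library, and the exception was knockout library 10. The log2 fold change of Ube2c was 1.33 ± 0.38 (SE, limma adjusted p = 0.0126, exact two-sided permutation p = 0.0003108). Its activator partner Cdc20 ran from 5.96 through 8.20 to 12 RPKM in floxed and from 8.39 through 16.8 to 33.9 in knockout libraries, a log2 fold change of 1.09 ± 0.37 (SE, limma adjusted p = 0.0353).

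Among the 7 mitotic kinases and their partners, 3 rose. The Polo-like kinase Plk1 ran from 3.22 through 4.94 to 7.64 RPKM in floxed and from 5.82 through 9.53 to 21.8 in knockout libraries, with a log2 fold change of 1.02 ± 0.32 (SE, limma adjusted p = 0.0209). The spindle kinase Aurka ran from 2.60 through 4.09 to 6.04 and from 4.02 through 8.02 to 19.1 RPKM, with a log2 fold change of 1.08 ± 0.37 (SE, limma adjusted p = 0.0349). The checkpoint kinase Bub1b changed least of the 7 called members, at 0.73 ± 0.25 on the log2 scale (SE, limma adjusted p = 0.0395). In each of these genes 7 of 8 knockout libraries lay above the highest floxed library.

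Of the 6 kinetochore, motor and chromosome structure genes, 2 rose. The kinesin Kif20a, which acts in cytokinesis, had a log2 fold change of 1.08 ± 0.38 (SE, limma adjusted p = 0.0416). The kinetochore motor Cenpe, the member with the lowest level in floxed vehicle libraries (1.52 ± 0.444 RPKM, SD, n = 8), had one of 1.02 ± 0.36 (SE, limma adjusted p = 0.0435). Cenpf, also a kinetochore protein, missed the threshold at 1.06 ± 0.40 (SE, limma adjusted p = 0.0570). None of the 5 mitotic cyclin, Cdk1 and Foxm1 genes was called, with a median log2 fold change of 0.82. Of the 20 G2/M members, 12 had an unadjusted p under 0.05.

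The G2/M calls depended on which libraries entered. In the vehicle-only batch alone 13 members rose, and in the mixed batch alone 0 were called. For Ube2c the log2 fold change was 1.63 ± 0.30 (SE) in the vehicle-only batch and 1.04 ± 0.58 (SE) in the mixed batch. Without floxed progesterone library 1, which is in neither group but shares the fitted spread, the fold changes stayed at the same values and 16 of 20 members rose. Without knockout vehicle library 10, 10 rose. With the replicate number as a block 0 were called, although the labels do not say that the numbers pair the libraries. Without 5 libraries with high oviduct or squamous epithelium markers (floxed vehicle 3, knockout vehicle 9 and 12, floxed progesterone 7, knockout progesterone 8) 0 were called, and Ube2c was at 1.19 ± 0.46 on the log2 scale (SE, limma adjusted p = 0.0851). Leaving out any 1 of knockout vehicle 9, 12 and 13 and floxed vehicle 1a, 3, 4 and 12 left 2 calls, and leaving out knockout vehicle 4 left 3.

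No G1/S member was called between genotypes in vehicle libraries, where the background was the 13.1% higher and 11.5% lower given above. Their median log2 fold change was 0.04, 11 were above 0, and 1 had an unadjusted p under 0.05. That gene was cyclin D1, Ccnd1, at 0.30 ± 0.13 (SE, limma adjusted p = 0.0967). The next by p were Cdkn1b at -0.14 ± 0.09, Ccne1 at 0.48 ± 0.41, Ccnd3 at -0.13 ± 0.11 and Ccnd2 at -0.13 ± 0.12 on the log2 scale (SE). The 8 licensing genes had a median log2 fold change of -0.08. The G1/S median was 0.19 without knockout vehicle library 10, with 17 members above 0, 3 below and 0 called. Without floxed vehicle library 12, 2 G1/S members were called.

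**Figure D2:**
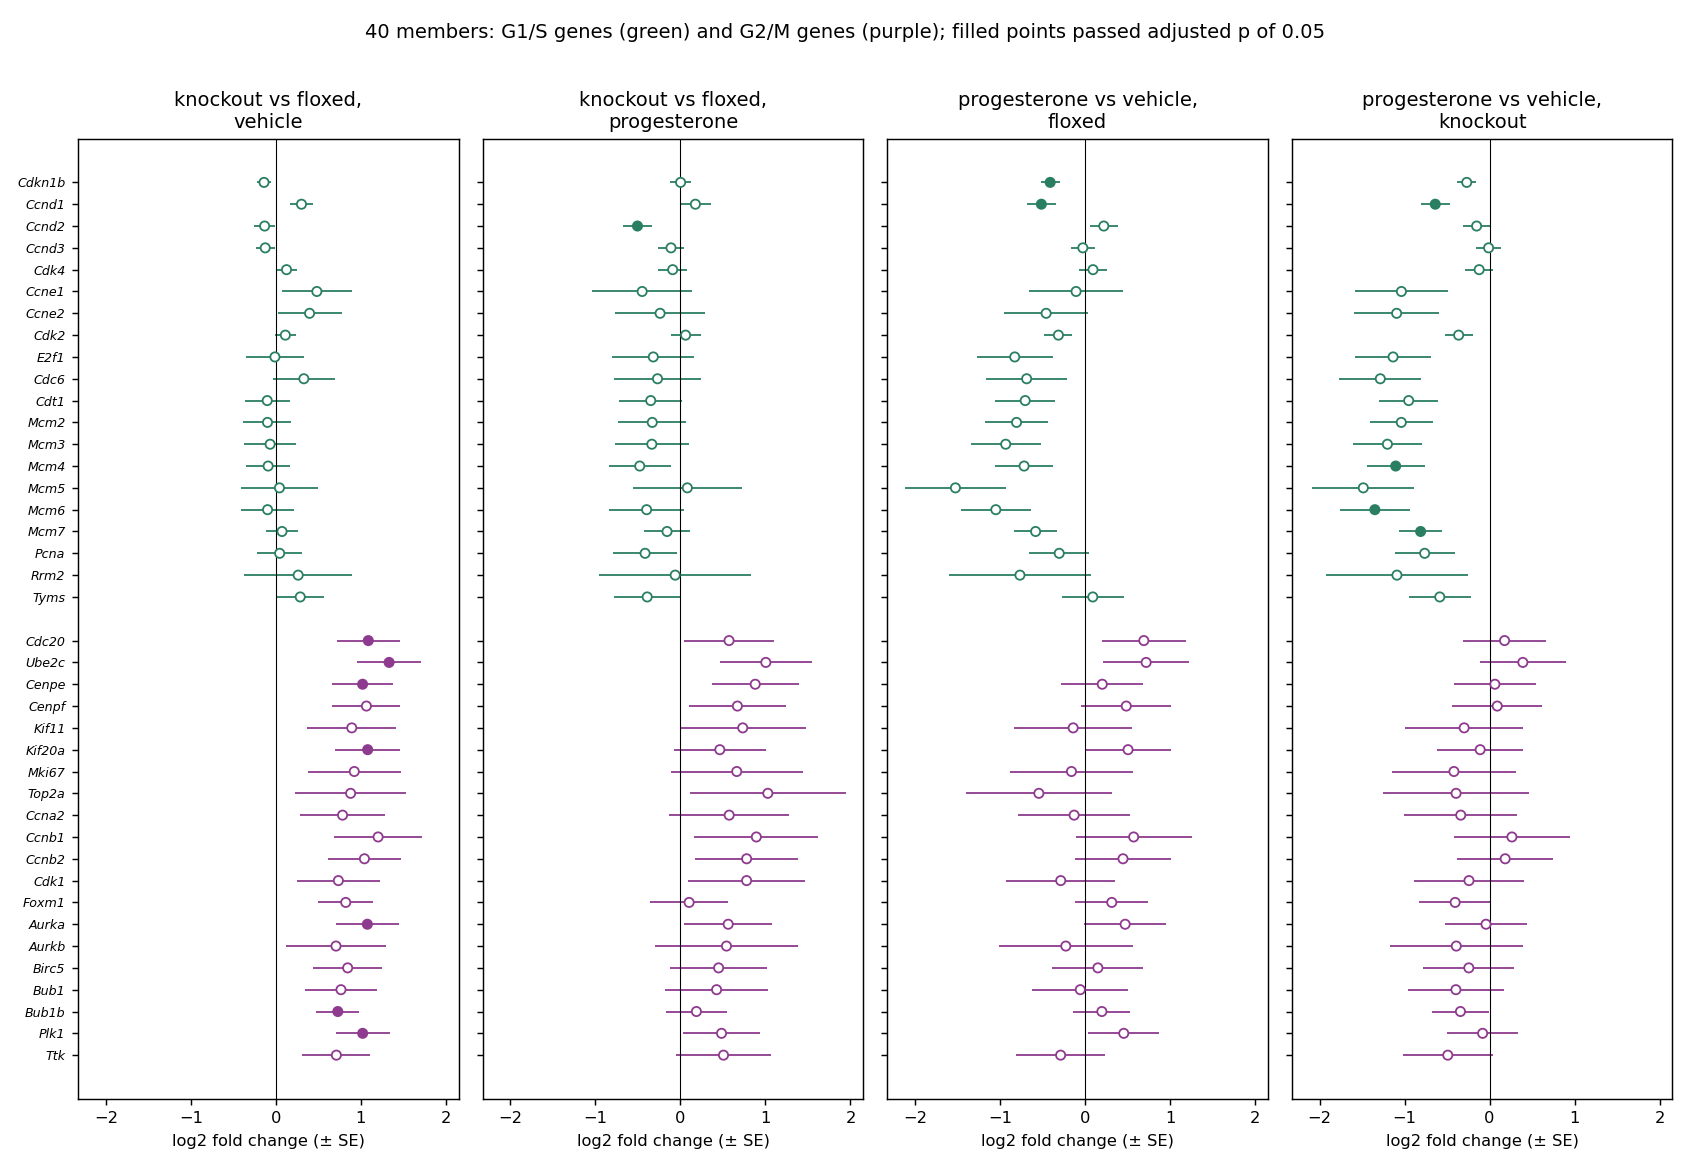
Points are fitted log2 fold changes of the 40 members (rows) with standard errors, 1 panel per comparison, G1/S in green and G2/M in purple, and filled where the adjusted p was under 0.05. The 20 G2/M points lie right of 0 in both genotype panels, with 7 filled under vehicle and 0 after progesterone, but without floxed progesterone library 1 only 2 of the 20 do after progesterone.

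After progesterone no G2/M member was called between genotypes, and none had an unadjusted p under 0.05, where 12.3% of all genes rose and 7.06% fell. All 20 fold changes were above 0, with a median of 0.57 on the log2 scale, but this direction rested on 1 library. Without floxed progesterone library 1, 18 of the 20 were below 0, with a median of -0.22, and again 0 had an unadjusted p under 0.05. The smallest p belonged to Ube2c, which was 3.10, 27.8, 29.4 and 47.2 RPKM in floxed libraries 1, 2, 7 and 9 and 55.2, 35.6, 25.0 and 45.4 in knockout libraries 4, 5, 6 and 8. The groups overlapped, and the log2 fold change was 1.00 ± 0.54 (SE, limma adjusted p = 0.207), against 0.19 ± 0.35 (SE) without floxed library 1. The next were Cenpe (0.88 ± 0.51), Ccnb2 (0.78 ± 0.60), Ccnb1 (0.89 ± 0.73) and Cenpf (0.67 ± 0.57) on the log2 scale (SE). Without floxed library 1 they were at 0.16, -0.063, -0.22 and -0.085. A missed threshold here does not show that the genotypes were alike.

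Of the 20 G1/S members, 1 fell in the knockout after progesterone, a share no higher than the 7.06% of all genes, with a median log2 fold change of -0.29 over the 20. Without floxed progesterone library 1 the median was -0.72 and 0 were called. Cyclin D2, Ccnd2, was 50.1, 39.3, 47.0 and 48.3 RPKM in floxed libraries 1, 2, 7 and 9 and 28.3, 35.2, 48.3 and 22.5 in knockout libraries 4, 5, 6 and 8. Knockout library 6 lay within the floxed range and the other 3 below it. The log2 fold change was -0.51 ± 0.17 (SE, limma adjusted p = 0.0432, exact two-sided permutation p = 0.0857). The call was lost on leaving out any 1 of floxed progesterone libraries 1, 7 and 9, knockout progesterone libraries 4, 5 and 8 and floxed vehicle libraries 1b, 2 and 4, and without floxed library 1 the limma adjusted p was 0.0953. The next by p were Mcm4 (-0.48 ± 0.37), Pcna (-0.42 ± 0.38), Tyms (-0.39 ± 0.39) and Ccnd1 (0.18 ± 0.18) on the log2 scale (SE), and none was called.

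In floxed uteri 2 of 20 G1/S genes fell after progesterone and 0 rose, where 15.1% of all genes fell and 7.84% rose, so the count of calls did not stand above the background. The median log2 fold change was -0.55, against -0.06 over all genes, and 8 members had an unadjusted p under 0.05, all of them lower. Without floxed progesterone library 1 the median was -0.31, 6 members were above 0 and 2 had an unadjusted p under 0.05. The Cdk inhibitor Cdkn1b ran from 19.4 through 26.7 to 29.9 RPKM under vehicle and was 23.1, 19.2, 19.4 and 17.8 in progesterone libraries 1, 2, 7 and 9. Of these 4, 3 lay below the lowest vehicle library. The log2 fold change was -0.41 ± 0.11 (SE, limma adjusted p = 0.0112, exact two-sided permutation p = 0.00808). Ccnd1, whose product starts the passage through G1, ran from 31.0 through 42.3 to 53.6 RPKM under vehicle and was 28.8, 31.3, 31.9 and 25.8 after progesterone. Its log2 fold change was -0.51 ± 0.17 (SE, limma adjusted p = 0.0336, exact two-sided permutation p = 0.0121), and the limma adjusted p without floxed progesterone library 1 was 0.0647.

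The helicase genes had larger fold changes with wider errors in floxed uteri. Mcm5 was at -1.52 ± 0.60 on the log2 scale (SE, limma adjusted p = 0.0706), Mcm6 at -1.05 ± 0.41 and Mcm7 at -0.58 ± 0.25. Mcm5 was 0.804, 25.6, 7.61 and 13.7 RPKM in progesterone libraries 1, 2, 7 and 9, against 11 through 22.7 to 39.8 under vehicle. Without library 1 the log2 fold change of Mcm5 was -0.66 ± 0.46 (SE). In the mixed batch alone, which held both treatments, 7 G1/S members fell: Ccnd1, Cdkn1b, Cdt1, Mcm2, Mcm3, Mcm6 and Mcm7. Over both batches, 7 fell without floxed progesterone library 2, and 1 without any 1 of floxed progesterone 1 and 9 and floxed vehicle 1b, 2 and 4. Leaving out knockout vehicle library 10, which is in neither group but shares the fit, gave 5: Ccnd1, Cdkn1b, Mcm4, Mcm5 and Mcm6.

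No G2/M member was called between treatments in floxed uteri (background 7.84% higher and 15.1% lower). The median log2 fold change was 0.20 (0.13 without knockout vehicle library 10), with 12 above 0 and 8 below, and 0 had an unadjusted p under 0.05. Ube2c was at 0.72 ± 0.50, Cdc20 at 0.69 ± 0.49, Plk1 at 0.46 ± 0.42, Kif20a at 0.51 ± 0.50 and Aurka at 0.47 ± 0.49 on the log2 scale (SE). The result turned on 1 library: without floxed progesterone library 1, 8 members rose, namely Aurka, Ccnb1, Ccnb2, Cdc20, Cenpf, Kif20a, Plk1 and Ube2c. All 20 were then above 0, with a median of 0.98, and Ube2c was at 1.53 ± 0.33 (SE, limma adjusted p = 0.00251).

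In knockout uteri progesterone lowered 4 of 20 G1/S members and raised 0, against 4.66% of all genes lower and 4.00% higher. All 20 fold changes were below 0, with a median of -0.99 on the log2 scale against -0.02 over all genes, and 14 had an unadjusted p under 0.05. Mcm6, a helicase subunit, ran from 8.39 through 21.7 to 39.0 RPKM under vehicle and was 8.63, 5.90, 7.33 and 11.9 in progesterone libraries 4, 5, 6 and 8. Of these 4, 2 lay below the lowest vehicle library, and that lowest vehicle library was number 10. The log2 fold change was -1.35 ± 0.41 (SE, limma adjusted p = 0.0450, exact two-sided permutation p = 0.0121). Mcm4 was at -1.10 ± 0.34 (SE, limma adjusted p = 0.0480) and Mcm7 at -0.81 ± 0.25 (SE, limma adjusted p = 0.0471).

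Ccnd1 ran from 40.7 through 53.1 to 61.5 RPKM under vehicle and was 21.6, 32.4, 43.6 and 39.9 after progesterone in knockout uteri. Of the 4 progesterone libraries, 3 lay below every vehicle library, and the log2 fold change was -0.64 ± 0.17 (SE, limma adjusted p = 0.0213). Mcm3, with the next smallest p, was at -1.20 ± 0.41 (SE, limma adjusted p = 0.0727). Without knockout vehicle library 10, 11 G1/S members fell, without floxed progesterone library 1, 7 fell, and without knockout progesterone library 4 or 5, 0 were called. The count was 1 without any 1 of knockout progesterone 6 and knockout vehicle 9, 11a, 11b and 12, and 2 without knockout vehicle 4. Libraries in neither group mattered too, through the shared fit. The count was 1 without any 1 of floxed vehicle 1a, 1b, 2, 3, 4 and 7 and floxed progesterone 9. It was 2 without any 1 of floxed vehicle 10 and 12 and floxed progesterone 7. In the mixed batch alone 1 member, Ccnd1, fell, and with the replicate number as a block 1 was called.

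No G2/M member was called between treatments in knockout uteri, and 0 had an unadjusted p under 0.05 (background 4.00% higher and 4.66% lower). The median log2 fold change was -0.24, with 14 members below 0. Leaving out knockout vehicle library 10 gave a median of -0.53, with 18 below 0. With all libraries, the 5 members with the smallest p were as follows. Bub1b was at -0.34 ± 0.34, Foxm1 at -0.40 ± 0.43, Ttk at -0.49 ± 0.53, Ube2c at 0.39 ± 0.50 and Bub1 at -0.40 ± 0.57 on the log2 scale (SE).

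The test of whether the progesterone response differed between genotypes called 0 members of either phase, where 2.49% of all genes were called in either direction. By unadjusted p under 0.05 the count was also 0 of 40. The median difference, knockout minus floxed, was -0.28 on the log2 scale for G1/S and -0.32 for G2/M members. Without floxed progesterone library 1 it was -0.67 and -1.18, with 3 G1/S and 15 G2/M members at an unadjusted p under 0.05, all 20 G2/M members below 0, and still 0 called. Without knockout vehicle library 10 it was -0.44 and -0.51. Ccnd2 had the smallest p, at -0.37 ± 0.21 (SE, limma adjusted p = 0.456). The 2 genotype comparisons and the 2 treatment comparisons share groups of libraries, so their values are not independent of one another.

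**Figure D3:**
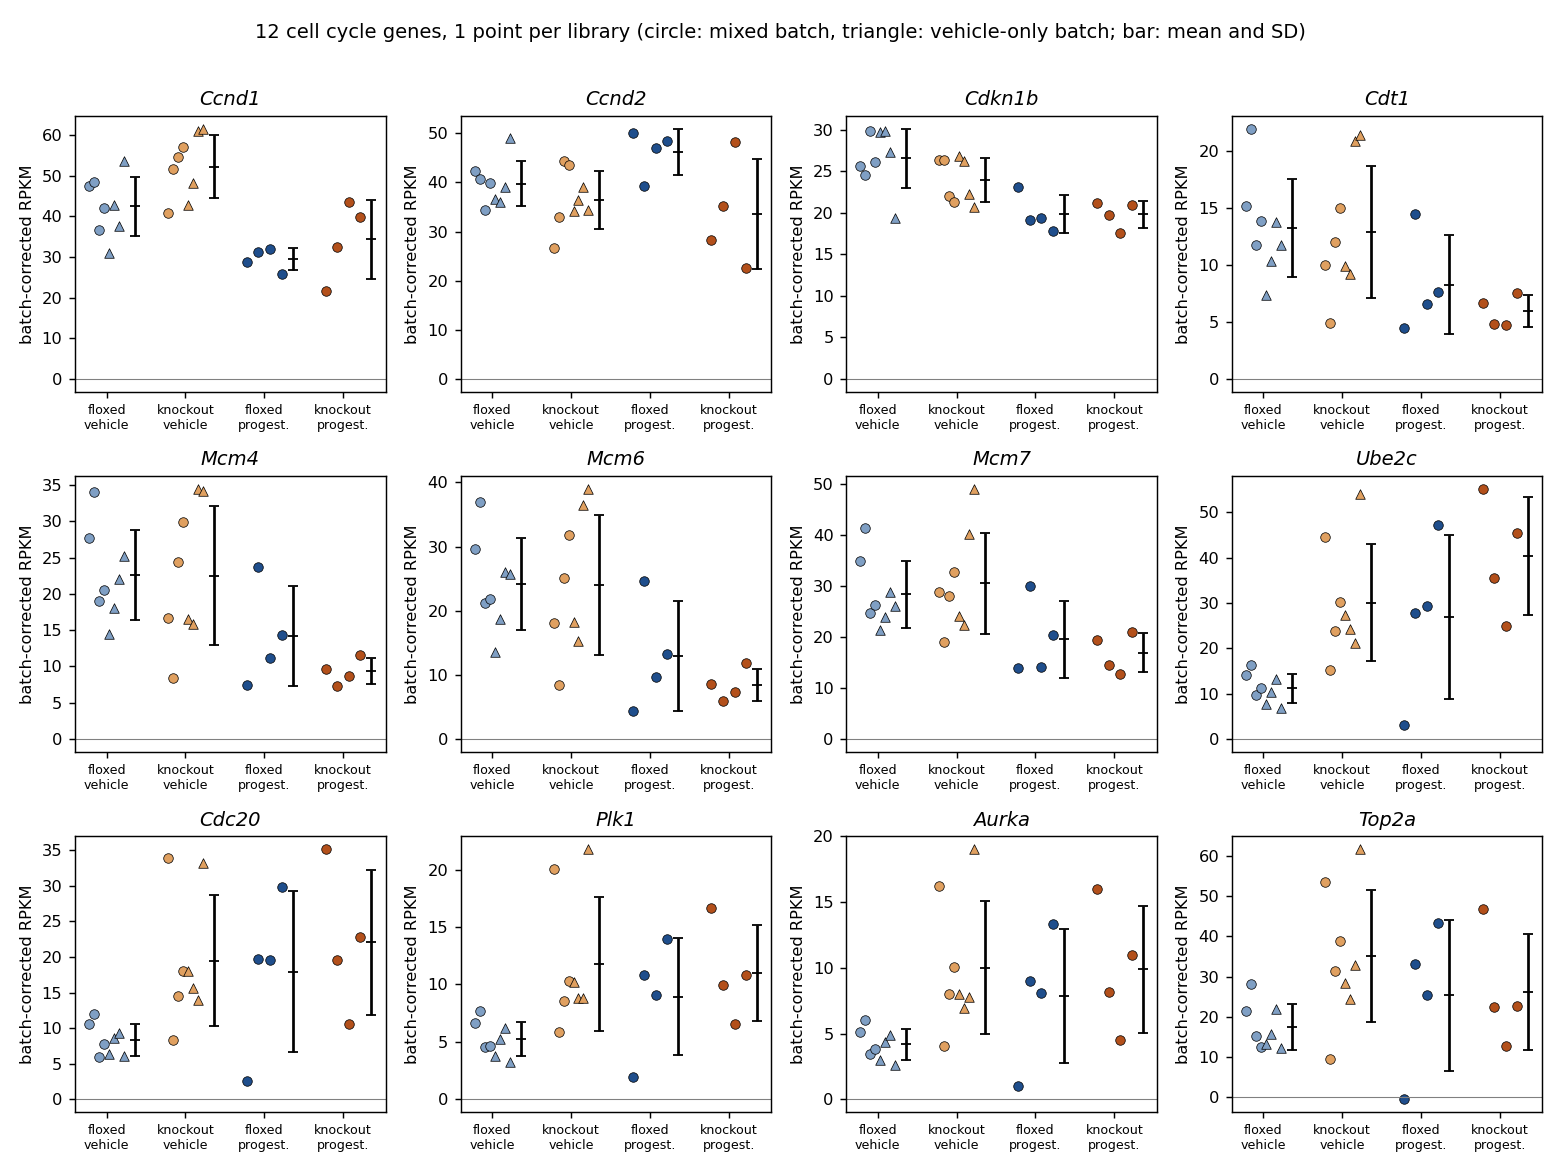
RPKM of 12 members, 1 point per library with the mean and SD as a bar (circles, mixed batch; triangles, vehicle-only batch; progest., progesterone). Of 8 knockout vehicle points of Ube2c, 7 lie above all floxed vehicle points, and floxed progesterone library 1 is the lowest point of its group in the mitotic genes.

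The balance of the phases differed among libraries. The summed RPKM of the 20 G2/M genes divided by that of the 8 licensing genes was 0.481 to 0.996 in floxed vehicle libraries and 0.833 to 3.29 in knockout vehicle libraries. After progesterone it was 0.374, 1.46, 2.89 and 3.56 in floxed libraries 1, 2, 7 and 9 and 5.77, 3.95, 2.13 and 2.57 in knockout libraries 4, 5, 6 and 8. Knockout vehicle library 11a, at 0.833, was the 1 knockout vehicle library within the floxed vehicle range. Floxed progesterone library 1 lay below the floxed vehicle range, and the other 3 above it. The ratio was built after the values were seen and has no test.

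**Figure D4:**
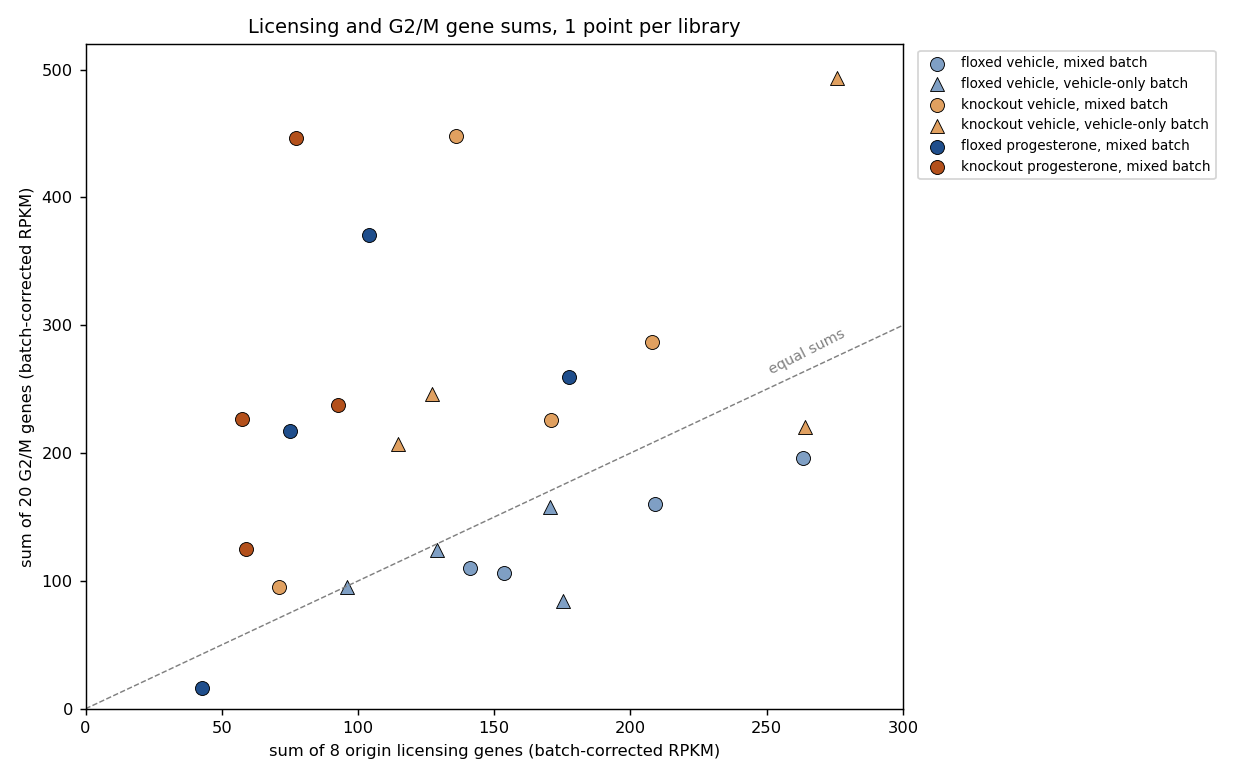
Each point is 1 library, with the summed RPKM of 8 licensing genes on the x axis and of 20 G2/M genes on the y axis, and a dashed line where both are equal. The 8 floxed vehicle libraries lie under the line, at ratios of 0.481 to 0.996, and all 4 knockout progesterone libraries lie above it. So do all knockout vehicle libraries but 11a, at 0.833, and all floxed progesterone libraries but 1, at 0.374. The line sets a sum of 20 genes against one of 8 and marks no threshold.

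The members not yet described were called in no comparison. Under vehicle the proliferation antigen Mki67 was 11.8 ± 3.98 RPKM in floxed and 24.5 ± 11.6 in knockout libraries (SD, n = 8 each), and topoisomerase Top2a was 17.4 ± 5.75 and 35.1 ± 16.5. After progesterone Mki67 was 0.423, 22, 17.3 and 32.4 RPKM in floxed libraries 1, 2, 7 and 9 and 38.3, 19.5, 9.36 and 9.46 in knockout libraries 4, 5, 6 and 8. In both genes the libraries of the genotypes overlapped in each treatment. The log2 fold change of Mki67 after progesterone was -0.51 without floxed library 1. Cyclin A2 (Ccna2), Cdk1, the spindle motor Kif11, Aurkb and its partner Birc5 had fold changes of 0.71 to 0.89 on the log2 scale between genotypes under vehicle.

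Among G1/S members, the transcription factor E2f1 had a log2 fold change after progesterone of -0.83 in floxed and -1.13 in knockout uteri. The licensing factors Cdc6 (-0.69 and -1.28) and Cdt1 (-0.70 and -0.95) and the helicase subunit Mcm2 (-0.81 and -1.04) had the same sign in both. The ribonucleotide reductase subunit Rrm2 (-0.77 and -1.09) and cyclin E2, Ccne2 (-0.46 and -1.09), did too with all libraries, and Cdk2 had the smallest values of these, -0.31 and -0.36. Without floxed progesterone library 1 the floxed values were -0.39 for E2f1, -0.10 for Cdc6, -0.47 for Cdt1, -0.46 for Mcm2 and -0.24 for Cdk2, and those of Rrm2 (0.44) and Ccne2 (0.10) were above 0. Cdk4, Ccnd3 and thymidylate synthase Tyms were at 0.09, -0.03 and 0.09 in floxed uteri. In knockout uteri the mean RPKM under vehicle and after progesterone was 126 and 118 for Cdk4, 62.6 and 61.7 for Ccnd3, and 8.45 and 5.32 for Tyms. For Tyms all 4 knockout progesterone libraries lay below the vehicle mean, but 0 below the lowest vehicle library. For Cdk4, 2 of the 4 lay below the lowest vehicle library, and library 8, at 167 RPKM, lay above the highest.

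Spread among the libraries of a group was wide. The median coefficient of variation of G2/M members was 31.5% in floxed vehicle, 49.6% in knockout vehicle, 72.6% in floxed progesterone and 56.1% in knockout progesterone libraries. For G1/S members it was 28.4%, 44.6%, 50.5% and 29.3% in the same order. Cdk4 had the highest level in floxed vehicle libraries, 115 ± 17.1 RPKM (SD, n = 8), followed by Ccnd3 at 67.7 ± 7.54 and Pcna, the replication clamp, at 63.6 ± 16.

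Other genes of the same pathways were taken from separate lists. The background for their counts is that given for each comparison above. Of 42 other mitotic genes, 7 rose and 0 fell in the knockout under vehicle (background 13.1% and 11.5%). The share that rose was near the background. The median log2 fold change of the 42 was 0.85, and 0 were called in the other 3 comparisons of groups. The 4 with the smallest p were Pttg1 (securin, 1.5 ± 0.43), Cenpa (the centromeric histone, 1.03 ± 0.34), Hjurp (its chaperone, 0.43 ± 0.14) and Cep55 (1.07 ± 0.36) on the log2 scale (SE). Of 35 other replication and S-phase genes, 2 rose in the knockout under vehicle, a share below the 13.1% of all genes: Dbf4 (0.79 ± 0.22) and Cdc7 (0.57 ± 0.20), which form the kinase that fires origins. In the knockout after progesterone 1 fell (Orc2, an origin recognition subunit, -0.47 ± 0.16), against 7.06% of all genes. In floxed uteri after progesterone 1 rose (Orc2, 0.50 ± 0.15) and 2 fell (Gins4, -0.44 ± 0.13, and Pold1, -0.92 ± 0.28), with a median of -0.60, against 7.84% of all genes higher and 15.1% lower. In knockout uteri 1 fell (Pola1, -1.01 ± 0.31), with a median of -0.66, against 4.66% of all genes lower.

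Of the Cdk inhibitors, Cdkn1a had the largest fold change with genotype. It ran from 3.20 through 4.57 to 11.8 RPKM in floxed and from 27.5 through 38.1 to 47.7 in knockout vehicle libraries, which did not overlap. The log2 fold change was 2.82 ± 0.18 under vehicle (SE, limma adjusted p = 9.9e-11) and 2.40 ± 0.25 after progesterone (SE, limma adjusted p = 4.09e-07). Of 9 inhibitors and pocket proteins tested, Rb1 (0.28 ± 0.08) and Cdkn2b (0.76 ± 0.24) also rose under vehicle, and Cdkn1a was the 1 called after progesterone. In vehicle libraries Cdkn1a, an inhibitor, and the called mitotic genes were both higher in the knockout. Of 15 other E2F and DREAM genes, E2f3 (0.48 ± 0.11) and E2f2 (0.75 ± 0.24) rose in the knockout under vehicle, near the background of 13.1%. After progesterone, Lin52 rose in floxed uteri (0.33 ± 0.10, background 7.84%) and E2f5 in knockout uteri (0.34 ± 0.07, background 4.00%). Of 11 other G1 and growth genes, Mycn (1.07 ± 0.20) and Btg1 (0.50 ± 0.09) rose in the knockout under vehicle (background 13.1%). Both also rose in the knockout after progesterone (1.22 ± 0.28 and 0.69 ± 0.13, background 12.3%). Progesterone lowered Btg1 in floxed uteri (-0.47 ± 0.12). It lowered Cdk6 (-1.16 ± 0.16 in floxed, -1.18 ± 0.16 in knockout) and Mycn (-1.55 ± 0.26 and -1.40 ± 0.26) on the log2 scale (SE). The background of lower genes was 15.1% in floxed and 4.66% in knockout uteri.

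Some markers of other cells were also called between genotypes. Over all genes, 13.1% rose and 11.5% fell in the knockout under vehicle, and 12.3% and 7.06% after progesterone. The counts below for squamous epithelium, and for endothelium after progesterone, were near these shares. All 12 tested leukocyte markers of 15 listed rose in the knockout under vehicle and 11 after progesterone. Their summed level was 118 to 197 RPKM in floxed vehicle, 254 to 468 in knockout vehicle, 120 to 209 in floxed progesterone and 190 to 474 in knockout progesterone libraries. Of 10 epithelium markers, 6 fell and 1 rose in the knockout under vehicle, with sums of 407 to 634 RPKM in floxed and 303 to 456 in knockout libraries. After progesterone 3 rose (Cldn4, 1.34 ± 0.20, Epcam, 0.88 ± 0.16, and Elf3, 0.67 ± 0.17 on the log2 scale, SE) and 0 fell, with sums of 382 to 595 and 434 to 614 RPKM. Of 7 stroma markers, 3 fell under vehicle (Pdgfra, -0.64 ± 0.11, Hoxa11, -0.55 ± 0.09, and Hoxa10, -0.30 ± 0.07) and 2 after progesterone. Of 5 skeletal muscle markers tested, 3 fell under vehicle and 1 after progesterone, and of 7 endothelium markers 2 rose under vehicle (Egfl7 and Cdh5) and 1 after progesterone (Egfl7). Among ovary markers 1 of 4 tested rose under vehicle (Cyp11a1, 1.23 ± 0.10) and 2 after progesterone, and among squamous epithelium markers 1 of 6 in both (Lor, 2.69 ± 0.27 and 1.68 ± 0.38). No oviduct, adipose, smooth muscle or red blood cell marker was called between genotypes. Squamous epithelium markers summed to -1.32 to 32.9 RPKM in floxed vehicle and 6.30 to 123 in knockout vehicle libraries, with Krt14 and Krt6a near 0. The part of these cells in the G2/M result was not tested. Leukocyte and G2/M sums in mixed-batch knockout vehicle libraries were 374 and 448 RPKM in 9, 468 and 94.9 in 10, 288 and 226 in 11b and 254 and 287 in 12. In the vehicle-only batch they were 336 and 246 RPKM in 4, 351 and 207 in 5, 304 and 220 in 11a and 321 and 494 in 13.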

How the data were processed

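The authors deposited 1 table of batch-corrected RPKM, here named a score because it is neither plain RPKM nor counts. Per the submitters' processing notes, cutadapt 2.7, TopHat, Partek and mm10 were used; the correction is not described in the sources used here. In the deposited values, the 2 batches had the same vehicle mean, to a relative 1e-04, for 13688 of 13688 genes above 1 RPKM, and 6.66% of values were below 0, so in the deposited values the vehicle mean is equal across batches. Values below 0 were set to 0 for the fit, although the design had assumed plain RPKM. Genes that reached 1 RPKM in 4 or more libraries (14284 of 22943) were fitted as log2(RPKM + 0.5) with limma 3.58.1 in R 4.3.3 (trend and robust eBayes, 4 groups and batch, 19 residual degrees of freedom), and p-values were adjusted by Benjamini-Hochberg over all of them. Fold changes on this scale understate changes of low genes. The fit was tested on simulated data, drawn gene by gene without shifts of whole libraries. Such data cannot show how the fit handles libraries that stand apart. Exact two-sided permutation tests used scipy 1.17.1, for 22 gene and comparison pairs, unadjusted. The pairs were members already called by limma in that comparison, plus Ctcf and Cdkn1a. For called members the exact p-values are therefore no independent support. Depth came from the value of 1 read, from at least 154 genes per library. Gene starts came from RefSeq GRCm38.p6.

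The members and lists were chosen with earlier results of these data known. The text names, per comparison of groups and phase, each called member and the 5 with the smallest p, and up to 4 called genes of each other pathway list. For the difference in response it gives the member with the smallest p, and other members only with values from alternative fits. Other genes named were chosen after their values were seen. Alternatives were other pseudocounts and filters, each batch alone, no batch term, a linear scale, quantile normalization, array weights, a replicate block, leaving out libraries, and 2 chosen after seeing the data.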

Additional observations from a re-analysis of the deposited data

Results flagged for a closer look

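Knockout progesterone library 8 stood far from the other 3 libraries of its group for 2 members. Cdk4 was 167 RPKM in it, against 99.3 to 107 in the others. Mcm2 was 13.1 RPKM in it, against 9.63 to 10.1. These were 2 of 160 gene and group combinations examined, and chance flags about 1 in 20. The library also had the highest squamous epithelium marker sum of its group, 57.6 RPKM; the part of this in both values was not tested.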

How the results depend on the processing

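Counts of called genes moved with the processing. Of 52 named gene and comparison values 19 changed sign under at least 1 alternative, 16 of them with the replicate block. None of the 19 was called with all libraries and the settings of the report, or where its sign changed. The causes were not tested, apart from fewer libraries or genes where these were left out. G2/M members higher in the knockout under vehicle numbered 7, and 4 with no filter, 0 in the mixed batch alone, 13 in the vehicle-only batch alone, 11 with array weights, 0 without 5 libraries with oviduct or squamous markers, and 2 to 10 without 1 library of either group. G1/S members in that comparison numbered 0, 2 with array weights, and 0 to 2 without 1 library. For the knockout after progesterone, G1/S calls were 1, 10 with array weights, 0 with no filter, in the mixed batch alone, on the linear scale, with quantile normalization or without the 5 libraries, and 0 to 1 without 1 library. G1/S calls for progesterone in floxed uteri were 2, 1 with no filter, 7 in the mixed batch alone, 4 without a batch term, 1 on the linear scale, 11 with array weights, 1 without the 5 libraries, and 1 to 7 without 1 library. G2/M calls there were 0, 2 with array weights, and 0 to 8 without 1 library. In knockout uteri G1/S calls were 4, 1 with no filter, 1 in the mixed batch alone, 7 without a batch term, 1 on the linear scale, 19 with array weights, 1 without the 5 libraries, and 0 to 11 without 1 library. G1/S calls for the difference in response were 0, and 4 with array weights. The array weights fit did not fully converge.

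The 2 added alternatives were chosen after seeing the data, and they left out libraries picked for their low values of these same genes, so they are no independent support. In the mixed batch alone without floxed progesterone library 1, G2/M calls were 1 (genotype, vehicle) and 3 (progesterone, floxed), and G1/S calls 0 (genotype, progesterone), 1 (progesterone, floxed) and 0 (progesterone, knockout). Without that library and knockout vehicle library 10, G2/M calls were 20, 8 and, for the difference in response, 1, and G1/S calls were 0, 1, 16 and, for the difference, 1.

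The labels do not say that the replicate numbers pair the libraries, and whether they do was not tested. Within each batch and treatment, no number was shared by the genotypes. Between groups, 6 of 11 same-numbered pairs correlated above 0.1 (median 0.127, range -0.342 to 0.544). Of differently numbered pairs, 73 of 197 did (median 0.0133, range -0.560 to 0.643). With a replicate block, G2/M calls under vehicle were 0, G1/S calls 2 (Ccnd2 and Ccnd3, lower), G1/S calls for progesterone in knockout uteri 1, and all genes called 822 (genotype, progesterone), 162 (progesterone, knockout) and 26 (difference).

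With the replicate block 16 named values changed sign, on the log2 scale: Ccne1 -0.065 and Cdkn1b 0.089 (genotype, vehicle), Ccnd1 -0.30 (genotype, progesterone), Aurka -0.064, Plk1 -0.032 and Kif20a -0.062 (progesterone, floxed), Bub1 0.77, Bub1b 0.56, Ttk 0.50 and Foxm1 0.33 (progesterone, knockout), and Tyms 0.055, Aurka 0.75, Bub1b 0.70, Plk1 0.56, Kif20a 0.70 and Foxm1 0.39 (difference). Bub1b in knockout uteri was 0.030 without the 5 libraries. Ccnb1 (-0.22), Ccnb2 (-0.063) and Cenpf (-0.085) changed sign between genotypes after progesterone in each of the 3 fits without floxed progesterone library 1. Without 1 library their values ran up to 1.45, 1.24 and 1.11.

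Over all genes, calls under vehicle were 3516, 2293 with a filter of 5 RPKM, 1085 in the vehicle-only batch and 6500 with array weights (3099 to 3675 without 1 library). The other comparisons gave 2767 (7123 with array weights; 2129 to 2557), 3280 (6276 with array weights, 2022 without the 5 libraries; 2374 to 4099), 1238 (5965, 1909 without a batch term, 383 without the 5; 863 to 1339) and, for the difference, 355 (236 with the 5 RPKM filter, 4122, 176 without the 5; 204 to 715).

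Depth was 29.9 M reads or more per library. Floxed progesterone and knockout progesterone have 4 libraries each, which limits every test of them.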
